A study of Mus musculus with 4 samples.

Results

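The genes Meg3, Rian, Mirg, Peg3, Snhg14, Snrpn, Ndn and Impact were examined in nuclei of mouse tissue labelled hippocampus. They are 8 imprinted genes named by symbol, out of 20211 gene symbols listed in all 4 single-nucleus RNA libraries of the study, and all 8 were present in every library. Each library came from a mouse genotype named by its label: wild type, a total (global) knockout of monoacylglycerol lipase (MAGL, the product of Mgll, which breaks down the endocannabinoid 2-arachidonoylglycerol), an astrocyte-specific knockout, or a neuron-specific knockout. The labels used here do not give the promoter behind either conditional knockout, the strain, the age or how many animals were pooled. With 1 library per genotype there was no replicate of any genotype, so no test was run and every interval is a 95% interval of counting error only.

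An imprinted gene is transcribed mainly from the copy inherited from 1 parent, under the control of DNA methylation set in the germ line. Meg3, Rian and Mirg are maternally expressed non-coding RNAs of the Dlk1-Dio3 domain on chromosome 12, read in the same direction one after the other, and they host small nucleolar RNAs and microRNAs. Snhg14, Snrpn and Ndn are paternally expressed and lie in the Prader-Willi/Angelman region on chromosome 7. Peg3 and Impact are paternally expressed genes of other domains. Several imprinted genes are known for high levels in neurons and for roles in brain growth, feeding and maternal behaviour. The deposited counts do not separate the parental copies, so the levels below are sums over both.

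In the GENCODE M21 annotation of GRCm38 (mm10), Meg3 lies at chr12:109541001-109571726, Rian at chr12:109603940-109661716 and Mirg at chr12:109729764-109749460, all on the plus strand. Of the mature microRNAs in the RefSeq table, 26 fall inside Mirg, 6 inside Rian and 3 inside Meg3 on that strand. Peg3 lies at chr7:6703892-6730431 on the minus strand. Snhg14 (chr7:59307924-59975759, minus strand) overlaps the 3′ part of Ube3a (chr7:59228750-59311536, plus strand), to which it is antisense. Snrpn lies at chr7:59982495-60140219 on the minus strand and shares its place with Gm38393, which also overlaps Snhg14. Ndn lies at chr7:62346569-62350262 on the plus strand and overlaps Gm32061 on the other. The counting of strand is unstated in the labels used here. UMIs in the overlaps of Snhg14 with Ube3a and of Ndn with Gm32061 may therefore have been assigned to either gene. Gm38393 lies on the same strand as Snrpn and Snhg14, so strand cannot separate them. UMIs in its overlaps with Snrpn and Snhg14 may also have been assigned to either gene.

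To show the sequence at the starts of the genes whose levels the results turn on, the 250 bases before an annotated start are printed for 4 cases (RefSeq, GRCm38.p6). Meg3 differs most between neuronal classes, and Snrpn and Ndn lay lowest against wild type. The far start of Snhg14 is also an annotated start of Snrpn. These RefSeq starts differ from the GENCODE places given above. The windows of Ndn and of the nearest Snrpn start lie inside those genes as placed there. Capitals mark TGCCGC, the letters bound by ZFP57 when methylated, and TGCGCA, the core of the NRF1 site, on either strand.
Meg3, chr12:109540746-109540995, plus strand: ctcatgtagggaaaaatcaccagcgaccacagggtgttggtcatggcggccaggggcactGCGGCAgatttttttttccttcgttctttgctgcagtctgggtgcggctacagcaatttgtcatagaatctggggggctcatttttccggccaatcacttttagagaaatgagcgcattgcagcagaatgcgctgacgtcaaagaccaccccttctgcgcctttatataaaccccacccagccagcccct
Snrpn, nearest start, chr7:60005200-60005449, minus strand: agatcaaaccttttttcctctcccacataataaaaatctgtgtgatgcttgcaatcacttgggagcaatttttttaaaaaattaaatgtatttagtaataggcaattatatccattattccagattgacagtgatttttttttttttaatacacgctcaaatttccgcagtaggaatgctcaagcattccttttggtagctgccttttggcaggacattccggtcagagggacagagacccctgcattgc
Snhg14 and Snrpn, shared far start, chr7:60450178-60450427, minus strand: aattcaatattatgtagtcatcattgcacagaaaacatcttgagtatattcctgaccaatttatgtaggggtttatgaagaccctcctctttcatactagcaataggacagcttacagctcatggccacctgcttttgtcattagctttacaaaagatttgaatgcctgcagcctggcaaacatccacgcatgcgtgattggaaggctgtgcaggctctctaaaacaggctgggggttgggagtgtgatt
Ndn, chr7:62348027-62348276, plus strand: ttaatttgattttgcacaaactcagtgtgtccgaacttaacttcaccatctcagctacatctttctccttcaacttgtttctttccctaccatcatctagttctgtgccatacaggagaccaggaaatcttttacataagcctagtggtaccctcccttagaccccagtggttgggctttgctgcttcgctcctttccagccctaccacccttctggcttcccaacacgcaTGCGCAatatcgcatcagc

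Impact was left out of the windows, and the other 7 genes had 11 of them. The windows over all genes were not restricted in this way. TGCCGC was found in 1 of the 11, that of Meg3, against 8.68% of 32851 windows of the same length over all genes. TGCGCA was found in 1, that of Ndn, against 6.43% of all windows. CpG numbers were 10 before the first Meg3 start and 0 before the second, 10 before Mirg, 8 before Peg3 and 5 before Ndn, and Rian had 0, beside a median of 6 over all windows. The windows of Snrpn held between 2 and 4. The far start is the same window for Snhg14 and Snrpn and is counted for each, so the 11 hold 10 different places. Set against the other Snrpn windows at the best ungapped shift, 33.5% of compared positions matched at the nearest start (60005200), 65.8% at that of 60047979 and 63.2% at that of 60140226.

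The libraries differed in depth and in makeup. They held 8945 to 31243 barcodes and 81623644 to 193307038 UMIs, with median UMIs per barcode of 8904 in wild type, 5456 in the library labelled total knockout, 7448 in that labelled astrocyte knockout and 8446 in that labelled neuron knockout. Between 108 and 466 barcodes were shared by a pair of libraries. Called doublets were removed at a share set in advance by the number of nuclei in each library. This share was 24.6% of nuclei under the total label and 7.07% to 8.50% in the others, and it does not measure doublets. After filtering and this removal 49879 nuclei remained, and 40997 of them fell in clusters that marker genes could name. A class name below therefore means like that type on these markers. Nuclei with an Xist UMI and no Y-linked UMI made up 40.7% to 46.4% of 3 libraries and 0.0259% of the total-labelled library. The total-labelled library also held types that the others had few of: medium spiny neurons, a type of the striatum, numbered 27, 741, 0 and 0 nuclei in the wild-type, total-, astrocyte- and neuron-labelled libraries. Thalamic excitatory neurons numbered 1, 171, 22 and 0 and oligodendrocytes 346, 1416, 39 and 49 in that order. In the 5 neuronal classes compared, the 5 general neuron markers summed to 8449.9 to 14819 CPM (UMIs scaled to a total of 1e6 in the class), against 107 to 980.4 CPM in oligodendrocytes and 192 to 1453 in astrocytes. The 10 oligodendrocyte markers summed to 31.5 to 399 CPM in these neurons and 32225 to 35542 in oligodendrocytes. In these classes Mgll stood at 46.0 to 152 CPM. Against wild type its log2 ratio ran from -0.51 to 0.10 for the total, -0.19 to 0.28 for the astrocyte and -0.03 to 0.14 for the neuron knockout library. The deleted part of Mgll is not known here, so its level does not check the labels, and the genotypes below are those of the labels.

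Meg3, a long non-coding RNA known as a growth suppressor, was high in neurons with a low point in dentate granule neurons. In what follows 4 values stand in the order wild type, total, astrocyte and neuron knockout library. Inhibitory neurons held 9650.3, 11889.5, 10445 and 11656 CPM, CA1 pyramidal neurons 5545, 7072, 6393 and 6700.3 CPM and granule neurons 1254, 1569.6, 1654 and 1586 CPM. Every granule value lay below every CA1 value. On the mean of the 4 log2 differences (-2.09, SD 0.10, n = 4 libraries), granule neurons were 4.25-fold below CA1 neurons, and they were 7.21-fold below inhibitory neurons. Differences between classes are descriptions with no test, although the 8 genes were left out of the clustering that made the classes.

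Between these ends lay subicular or cortical excitatory neurons (mean 8388 CPM, SD 831 over 4 libraries), CA2/CA3 neurons (mean 6785 CPM, SD 611) and CA1 neurons (mean 6428 CPM, SD 651). The ranges of CA2/CA3 and CA1 neurons over libraries overlapped. Within libraries CA2/CA3 neurons lay above CA1 neurons by log2 differences of 0.13, 0.07, 0.02 and 0.10. The ends of the order were inhibitory neurons (mean 10910.3 CPM, SD 1052) and granule neurons (mean 1516 CPM, SD 178). Among glia, astrocytes averaged 249.9 CPM (SD 236), from 32.0 to 581 over libraries, oligodendrocyte precursors 222 CPM and oligodendrocytes 137 CPM.

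The step was also seen in single nuclei of equal depth. Thinning left out 1161 nuclei with fewer than 1000 UMIs, among them 386 of 1416 oligodendrocytes of the total knockout library. After thinning each nucleus to 1000 UMIs, 69.5% of wild-type granule nuclei held a Meg3 UMI (median 1.00 UMI), against 99.7% of CA1 nuclei (median 5.00). The thinned granule shares were 69.5, 74.4, 77.3 and 76.3%, and without thinning they were 98.6, 96.2, 99 and 98.3%. In oligodendrocytes, used here for the background, the unthinned shares were 2.31, 4.94, 10.3 and 0% and the thinned shares 1.18, 5.73, 6.06 and 0%. The median depth in wild type was 2014 UMIs in oligodendrocytes and 7890.0 in granule nuclei.

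Meg3 UMIs of oligodendrocytes and astrocytes sat in few nuclei. In wild type, 8 of 346 oligodendrocytes held all 91 UMIs. In the total knockout library 70 of 1416 held 568 UMIs, and the 10 highest nuclei held 50.7% of them. The 8 Meg3 UMIs of wild-type astrocytes lay in 2 of 100 nuclei. Oligodendrocyte precursors held Meg3 in more nuclei: 125 of 327 wild-type nuclei held a Meg3 UMI, with 18.3% of the UMIs in the 10 highest, against 80 of 753 nuclei and 62.7% in the total knockout library. The astrocyte and neuron knockout libraries had few such nuclei, and 15 of 25 and 5 of 20 of them held a Meg3 UMI. After thinning the shares were 14.7, 6.58, 32.0 and 20.0%, at levels of 158, 330.2, 266 and 132 CPM, so the share and the level had opposite orders in the wild-type and total knockout libraries. No order is read from these shares. Whether glial nuclei carried RNA of neurons was not tested.

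**Figure D1:**
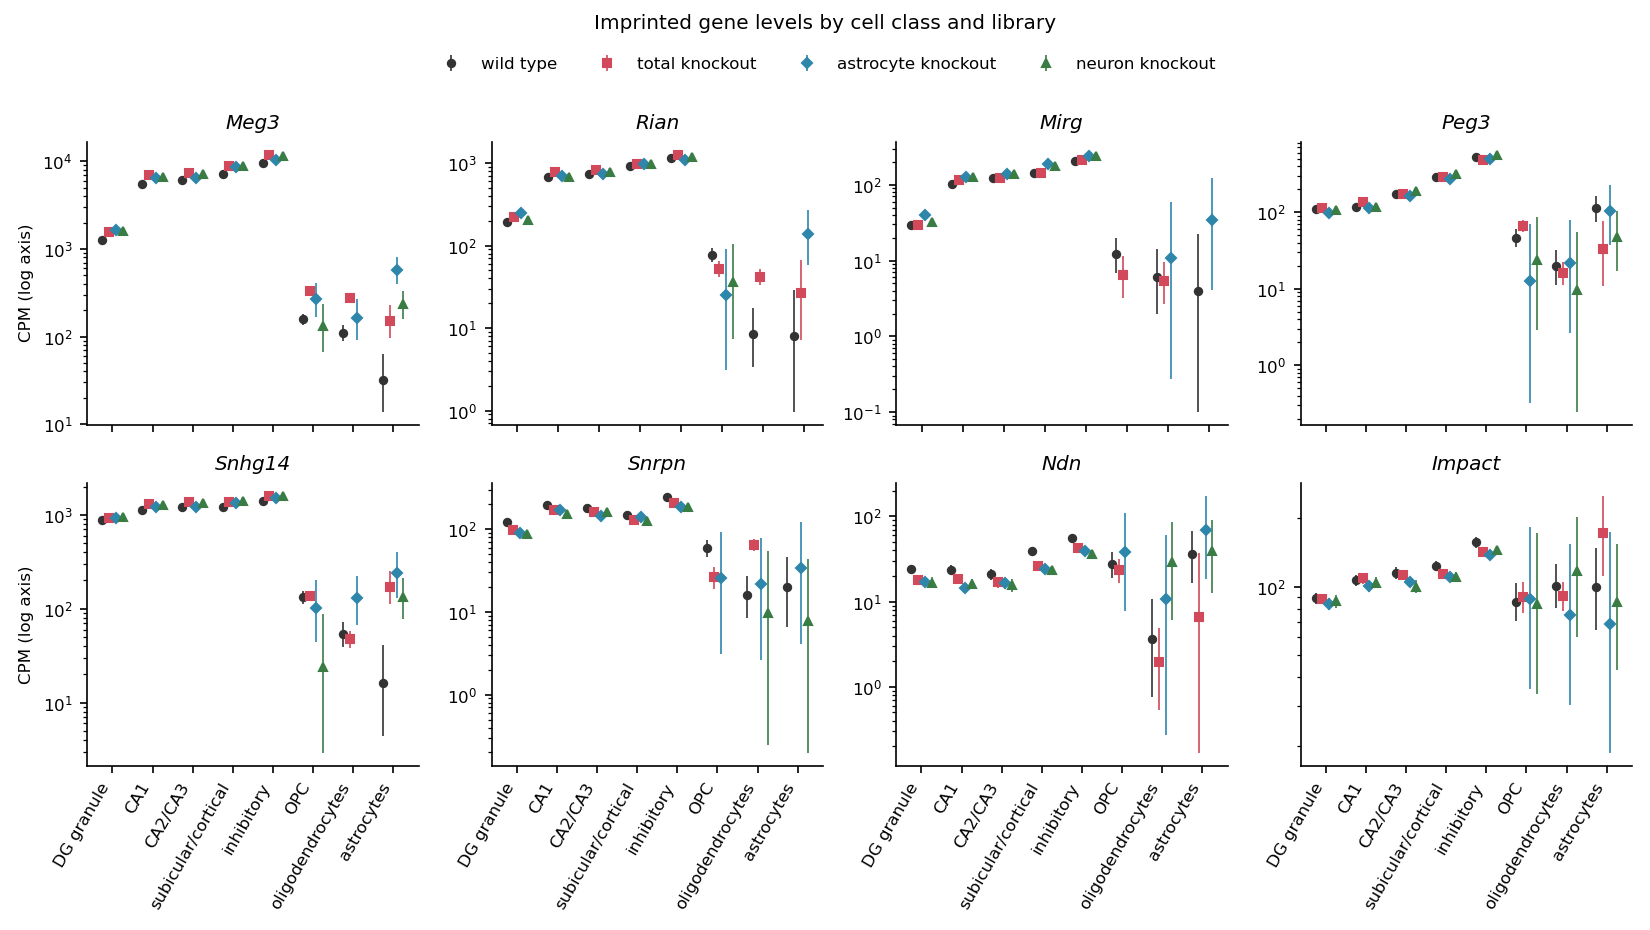
Level of each imprinted gene (CPM of the class, log axis) in 8 cell classes, with 1 symbol per library, 95% counting intervals as bars and no symbol where a library had no UMI (DG, dentate gyrus; OPC, oligodendrocyte precursors). Meg3, Rian and Mirg drop in granule neurons, Meg3 to 1254 CPM in wild type, while Impact lies at similar levels in excitatory neurons and glia.

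Rian, which hosts small nucleolar RNAs, followed the same order over the 5 neuronal classes compared. It stood at 195, 219, 246 and 207 CPM in granule neurons and 672, 769.6, 702 and 682 CPM in CA1 neurons. Inhibitory neurons held 1145, 1247, 1088 and 1181 CPM. Granule neurons were 3.27-fold below CA1 and 5.39-fold below inhibitory neurons. Outside the 5 classes, thalamic excitatory neurons averaged 1324 CPM of Rian over 2 libraries, above the mean of 1165 in inhibitory neurons. Their mean was also the highest for Snhg14 (1812 CPM, against 1514 in inhibitory neurons). For Mirg, Peg3 and Snrpn it was the highest with ranges that overlapped those of inhibitory neurons. For Meg3 it was 9741 CPM, below inhibitory neurons.

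Mirg, the microRNA host, stood at 29.4, 29.3, 40.2 and 32.5 CPM in granule neurons. CA1 neurons held 103, 114, 126 and 126 CPM and inhibitory neurons 208, 211, 237 and 240.3 CPM. The granule values were 3.59-fold and 6.87-fold below these. For Rian and Mirg, as for Meg3, no granule value reached the range of the other 4 neuronal classes compared.

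The balance of the 3 transcripts differed between classes by less than their levels did. In wild-type granule neurons there were 15.6 (interval 15.0 to 16.2) Rian UMIs for each 100 of Meg3. In CA1 neurons there were 12.1 (interval 11.8 to 12.4) and in inhibitory neurons 11.9 (interval 11.6 to 12.1). For Mirg the values were 2.34 (interval 2.13 to 2.58) in granule and 1.86 (interval 1.76 to 1.97) in CA1 neurons. Oligodendrocyte precursors held 48.7 (interval 37.8 to 62.5) Rian UMIs for each 100 of Meg3 in wild type. In the total knockout library they held 15.8 (interval 12.5 to 19.8). These are ratios of UMIs and are not corrected for length.

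Peg3, which encodes a zinc-finger protein, had the same order over the 5 classes as Meg3, with steps of other sizes. Inhibitory neurons held 524, 485, 488 and 549.7 CPM. CA1 neurons held 115, 134, 112 and 117 CPM and granule neurons 109, 114, 98.1 and 106 CPM, ranges that overlapped, although the granule value was the lower in each library (mean log2 difference -0.16, SD 0.07, n = 4 libraries). CA1 neurons were 4.29-fold below inhibitory neurons, while granule neurons were 1.12-fold below CA1 neurons. Subicular or cortical neurons lay between (mean 291 CPM, SD 16.7). Wild-type astrocytes held 112 CPM (28 UMIs, interval 74.4 to 162), and those of the total knockout library 33.1 CPM (5 UMIs, interval 10.7 to 77.2).

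Snhg14, the long host of small nucleolar RNAs that runs antisense into Ube3a, was found in all 5 neuronal classes at levels that differed less. Granule neurons held 875, 938, 917 and 945 CPM, CA1 neurons 1134, 1293, 1209 and 1287 CPM and inhibitory neurons 1389.8, 1583, 1506 and 1578 CPM. Granule neurons were 1.34-fold below CA1 and 1.65-fold below inhibitory neurons. Oligodendrocytes averaged 57.5 CPM and their precursors 98.7.

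Snrpn, which encodes a core protein of splicing particles, stood at 121, 96.8, 88.9 and 87.1 CPM in granule neurons. CA1 neurons held 194, 169, 169 and 152 CPM and inhibitory neurons 244, 205, 187 and 187 CPM. Subicular or cortical neurons, next below inhibitory neurons among the 5 classes for Meg3, lay below CA1 neurons for Snrpn (mean log2 difference -0.33, SD 0.06, n = 4 libraries). In oligodendrocytes the level was 15.9, 65.0, 21.5 and 9.73 CPM.

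Ndn, the gene of necdin, a MAGE-family protein of postmitotic neurons, had low counts. Inhibitory neurons held 56.1, 42.6, 39.4 and 36.0 CPM and subicular or cortical neurons 39.0, 26.5, 23.9 and 23.4 CPM. CA1 neurons held 23.7, 18.4, 14.6 and 16.1 CPM and granule neurons 24.4, 17.9, 17 and 16.7 CPM, with overlapping ranges. Its highest class mean was in Cajal-Retzius cells, early-born neurons of the outer layer. They held 134 CPM (15 UMIs, interval 75 to 221) in 43 wild-type nuclei and 73.2 CPM (21 UMIs, interval 45.3 to 112) in 178 nuclei of the total knockout library. The other libraries held 3 and 2 such nuclei. Among glia, astrocytes averaged 37.5 CPM (19 UMIs, 6.62 to 68.4 CPM over libraries). Oligodendrocyte precursors averaged 22.2 CPM (77 UMIs, 0 to 38.1 CPM) and oligodendrocytes 11.4 CPM (11 UMIs), beside a mean of 18.2 CPM in CA1 neurons.

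Impact, which encodes an inhibitor of the stress kinase GCN2, was found in glia at levels like those of excitatory neurons. Granule neurons held 88.9, 88.8, 84.1 and 86.3 CPM, CA1 neurons 107, 109, 100.4 and 104 CPM and inhibitory neurons 157, 143, 138 and 145 CPM. Wild-type oligodendrocytes held 101 CPM (83 UMIs, interval 80.7 to 126), and those of the total knockout library 91.1 CPM (188 UMIs, interval 78.6 to 105). The mean log2 difference of oligodendrocytes to CA1 neurons was -0.15 (SD 0.25, n = 4 libraries). After thinning, 9.12% of wild-type oligodendrocytes and 7.44% of granule nuclei held an Impact UMI. Without thinning the shares were 18.5% and 48.3%.

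Finer clusters showed spread within the classes. Over 43 clusters of at least 100 nuclei, Meg3 was highest in the inhibitory cluster led by Sst (11736 CPM, mean over libraries). The inhibitory clusters led by Slc17a8 and Pvalb held 11526 and 11390.4 CPM, and that led by Vip 9189.6. A subicular or cortical cluster with Dcn and Dlk1 among its leading genes held 11444 CPM, the highest of the named excitatory clusters. Dlk1 is a paternally expressed protein-coding gene of the Meg3 domain.

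The 2 granule clusters held 1392 and 1766 CPM of Meg3, and the next lowest named neuronal cluster was that of Cajal-Retzius cells, at 4283. Snrpn was highest in the Vip cluster (327 CPM). Within CA2/CA3 neurons it stood at 292 CPM in the cluster led by Vgll3 and at 130.3 and 97.2 in the other two. Peg3 was highest in the Pvalb cluster, at 631 CPM.

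Across the clusters the 3 transcripts of chromosome 12 ran in parallel. Snhg14 of chromosome 7 ran with them, at a Pearson r of 0.97 to Meg3, 0.97 to Rian and 0.93 to Mirg. Clusters share libraries and depth, so the correlations are descriptions. By Pearson r of log2(CPM + 1) among 12656 genes, Meg3 was most like Rian (0.99), B830012L14Rik (0.98) and Snhg11 (0.98). Rian was most like Meg3 (0.99), Snhg14 (0.97) and B830012L14Rik (0.97), and Mirg most like B830012L14Rik (0.99), Snhg11 (0.98) and Meg3 (0.98). B830012L14Rik lies between Rian and Mirg, at chr12:109695586-109702587 on the plus strand. It stood at 53.0, 58.7, 67.0 and 54.5 CPM in granule and 292, 335, 295 and 310.0 CPM in inhibitory neurons.

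Of the genes of the other domains, Snhg14 and Peg3 had Meg3 among the 3 genes most like them, while Snrpn, Ndn and Impact did not. Among the genes most like Snhg14 were Rian (0.97) and Meg3 (0.97), and Peg3 was most like Stmn3 (0.91), Bend6 (0.91) and Meg3 (0.90). Snrpn was most like Gm27253 (0.85), Ccdc93 (0.83) and Tceal5 (0.83). Ndn was most like Gaa (0.83), Wrb (0.76) and Pmvk (0.76), with r = 0.36 to Meg3. Impact was most like Cgref1 (0.84), Gm15892 (0.83) and Tmem30c (0.79).

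**Figure D2:**
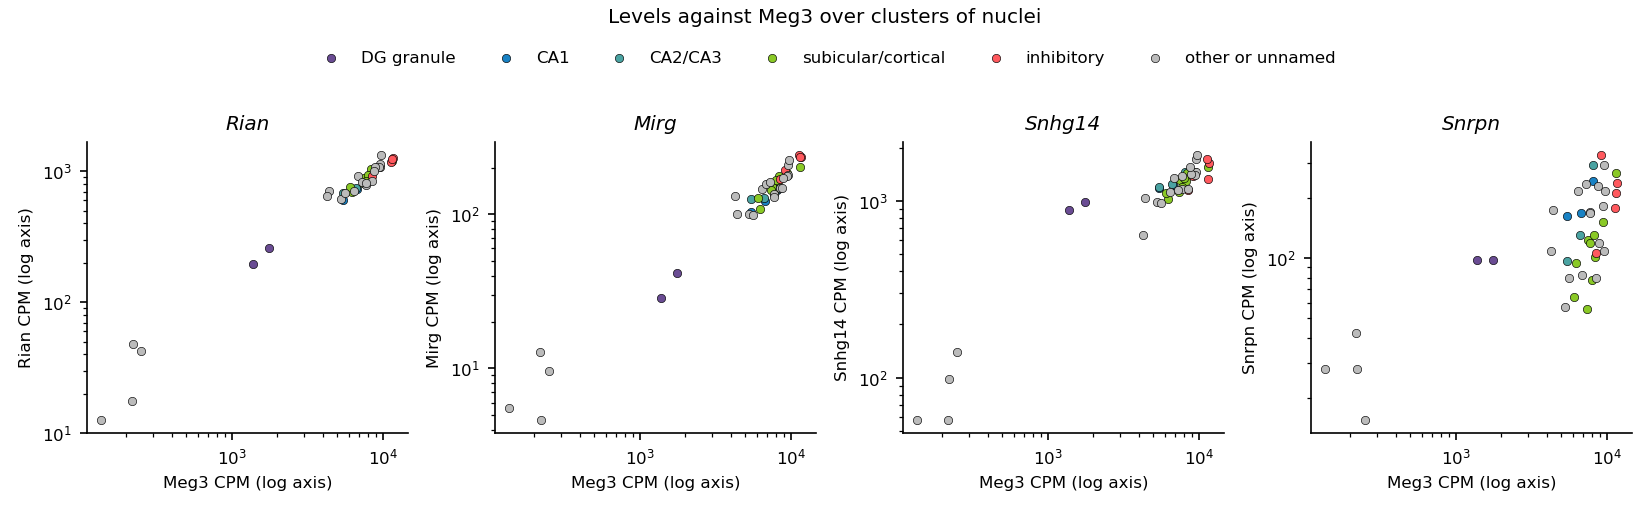
Levels of Rian, Mirg, Snhg14 and Snrpn against that of Meg3 (CPM, log axes), with 1 point per cluster of nuclei, coloured by class. Rian and Mirg rise with Meg3 from glia through the 2 granule clusters (Meg3 at 1392 and 1766 CPM) to inhibitory neurons, while Snrpn spreads from 55.8 to 327 CPM among clusters with high Meg3.

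The knockout libraries were then compared with wild type. The 3 comparisons share 1 wild-type library, so their values are given side by side. A gene was called where its CPM differed from wild type by at least 1.5-fold. Of 40 pairs of gene and class, 0 were called in the total, 2 in the astrocyte and 2 in the neuron knockout library, and each called pair was a lower value of Ndn. Over all genes with at least 100 UMIs, the shares called in these libraries were 7.07%, 7.01% and 6.50% in granule neurons, 8.19%, 5.20% and 6.79% in CA1 neurons and 7.44%, 4.43% and 7.26% in CA2/CA3 neurons. They were 6.50%, 6.55% and 5.94% in subicular or cortical neurons and 7.08%, 6.88% and 7.10% in inhibitory neurons. Set against these shares, the counts of the imprinted genes are not a result about them as a group. Their median log2 ratios in the 3 knockout libraries were 0.03, -0.01 and 0.02 in granule neurons, 0.17, 0.01 and 0.03 in CA1 neurons and 0.01, -0.05 and 0.10 in CA2/CA3 neurons. They were 0.01, 0.01 and 0.11 in subicular or cortical and -0.05, -0.09 and 0.06 in inhibitory neurons. Over all genes the medians were -0.06 to -0.01 in these classes and libraries.

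Ndn had the lowest ratios of the 8 genes. Its log2 ratios over the 5 classes were -0.56 to -0.32 in the total, -0.71 to -0.36 in the astrocyte and -0.74 to -0.43 in the neuron knockout library. The called pairs were CA1 neurons at -0.70 (interval -0.96 to -0.44) and subicular or cortical neurons at -0.71 (interval -0.89 to -0.52) in the astrocyte knockout library. In the neuron knockout library they were subicular or cortical neurons at -0.74 (interval -0.92 to -0.56) and inhibitory neurons at -0.64 (interval -0.82 to -0.46).

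The ratios were also taken within 1 sex, since the total knockout library differed from the other 3 in sex makeup. With only nuclei that held a Y-linked UMI and no Xist UMI, the Ndn ratios of inhibitory neurons were -0.07, -0.16 and -0.27, against -0.40, -0.51 and -0.64 with all nuclei. In granule neurons they were -0.33, -0.75 and -0.52, against -0.44, -0.52 and -0.55, and in subicular or cortical neurons -0.46, -0.47 and -0.53, against -0.56, -0.71 and -0.74. Over the 5 classes and 3 libraries the restricted ratios were -0.75 to 0.02, and the calls numbered 0, 1 and 0. The 1 call was that of granule neurons in the astrocyte knockout library, which was not called with all nuclei. None of the pairs called with all nuclei was called with these nuclei. In wild type the restriction kept 389 of 1012 inhibitory and 840 of 1868 granule nuclei. Counting error is therefore wider, and no intervals are given for the restricted ratios. Whether sex or the fewer nuclei lay behind the differences was not tested.

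Snrpn was lower than in wild type by less than 1.5-fold, except for -0.62 in CA2/CA3 neurons of the astrocyte knockout library after thinning and a lowest value of -0.62 with the largest cluster of each class. In granule neurons its ratio was -0.33 (interval -0.42 to -0.23) in the total, -0.45 (interval -0.56 to -0.34) in the astrocyte and -0.48 (interval -0.59 to -0.37) in the neuron knockout library. Over all 5 classes the ratios were -0.48 to -0.11, and with the male nuclei only -0.53 to -0.11. Snrpn and Ndn stood highest in wild type among the 4 libraries in 5 of 5 classes, as did 8.90% of 11317 genes.

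Meg3 and Snhg14 stood lowest in wild type in 5 of 5 classes, as did 3.18% of the same genes. The Meg3 ratios of granule neurons were 0.32, 0.40 and 0.34, those of CA1 neurons 0.35, 0.21 and 0.27 and those of inhibitory neurons 0.30, 0.11 and 0.27. Over all classes Meg3 ratios were 0.10 to 0.40 and Snhg14 ratios 0.01 to 0.21. With male nuclei only they were 0.14 to 0.37 for Meg3 and -0.07 to 0.17 for Snhg14. No ratio of either gene reached 1.5-fold, but Meg3 in granule neurons of the total knockout library stood at 0.71 with doublets kept and 0.62 with classes set by markers in each nucleus, against 0.32. How far libraries of 1 genotype differ is unknown without a replicate.

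No ratio of the other 4 genes reached 1.5-fold, except that Mirg in granule neurons of the astrocyte knockout library stood at 0.64 with doublets kept and 0.67 after thinning, against 0.45. Rian ratios were -0.07 to 0.33 and Mirg ratios -0.00 to 0.45, both highest in granule neurons of the astrocyte knockout library (interval for Mirg 0.27 to 0.64). In subicular or cortical neurons Mirg stood at 143, 144, 189.6 and 179 CPM. Peg3 ratios were -0.15 to 0.23 and Impact ratios -0.19 to 0.02.

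**Figure D3:**
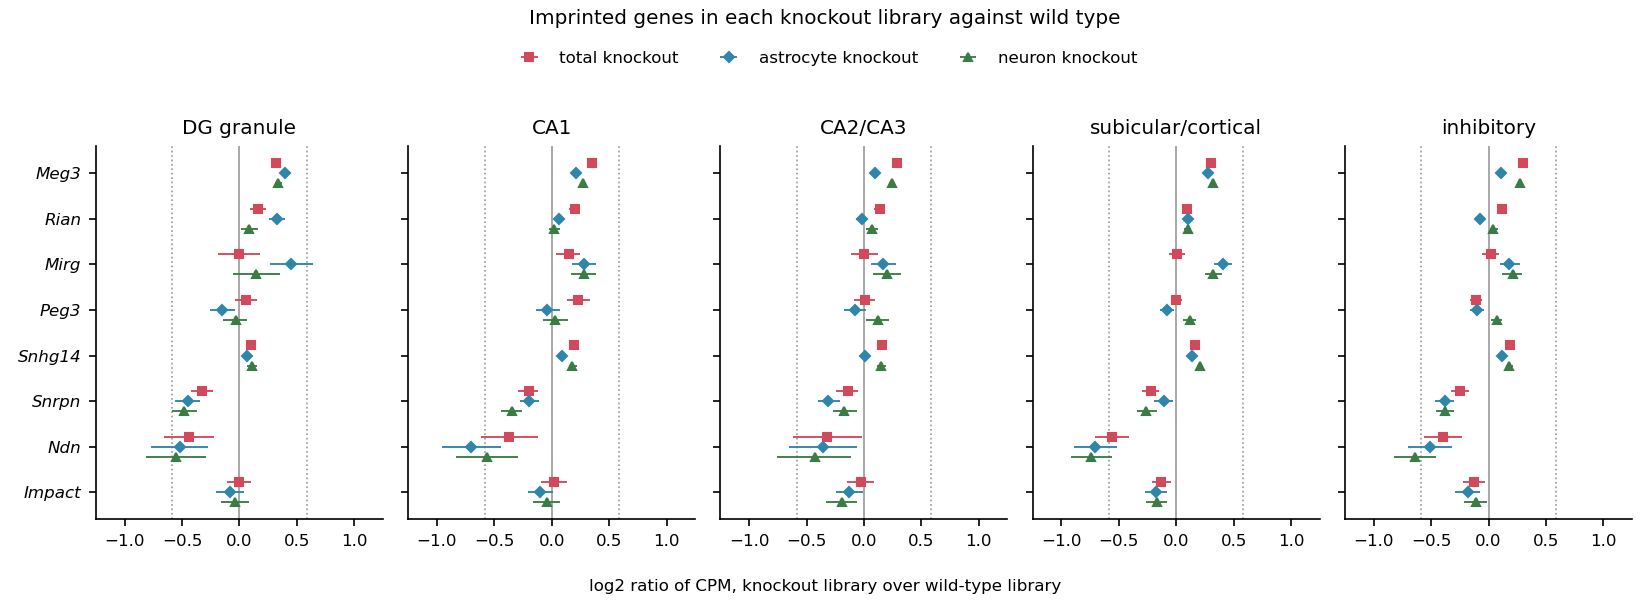
Log2 ratio of CPM of each knockout library to the shared wild-type library, by gene and class, with 95% counting intervals and dotted lines at 1.5-fold. Meg3 lies right of 0 (0.10 to 0.40) and Snrpn and Ndn lie left of it (Ndn -0.74 to -0.32).

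Ratios between genes of a domain do not depend on the library total. In granule neurons the Snrpn UMIs for each 100 of Snhg14 were 13.9 (interval 13.2 to 14.6) in wild type and 10.3, 9.69 and 9.21 in the knockout libraries. In inhibitory neurons they were 17.5 (interval 16.8 to 18.3) and 12.9, 12.4 and 11.9. Since Snrpn stood highest and Snhg14 lowest in wild type in each class, this ratio adds no separate observation. Rian per 100 Meg3 was highest in wild type in 5 of 5 classes, while the Rian level itself was lowest there in 3 of 5. Mirg per 100 Meg3 was lowest in the total and highest in the astrocyte knockout library in 5 of 5 classes, for example 1.63 (interval 1.58 to 1.69) and 2.18 (interval 2.10 to 2.26) in subicular or cortical neurons.

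Transcripts of the cytoplasm differed between these libraries. The 84 ribosomal protein genes summed to 3819, 3215, 2584 and 2514 CPM in granule neurons and 2859.9, 2548, 2104 and 2016 CPM in inhibitory neurons, and were highest in wild type in 5 of 5 classes, as were Snrpn and Ndn. Mitochondrial UMIs had another order: they made up 0.0497%, 0.0479%, 0.0271% and 0.0115% in granule neurons and 0.0264%, 0.0310%, 0.0208% and 0.00811% in CA1 neurons. They were lowest in the neuron knockout library in 5 of 5 classes, and higher in the total knockout library than in wild type in CA1 and in subicular or cortical neurons. The part of either measure in the ratios was not tested.

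Other imprinted genes came from a list of 42, of which 35 were listed in all 4 libraries and 28 had at least 100 UMIs in a class compared. Of 126 pairs of gene and class, 6, 8 and 6 were past 1.5-fold in the total, astrocyte and neuron knockout libraries. These counts lie near the background, since 4.43% to 8.19% of all genes were past it in these classes. In inhibitory neurons 27 were measured, with 2, 3 and 4 lower and no higher calls, and medians of 0.04, -0.16 and -0.05. Of 13209 genes in inhibitory neurons 771, 710 and 718 were lower and 164, 199 and 220 higher, so calls leaned the same way there. In CA1 neurons 24 were measured, with no lower and 2, 2 and 0 higher calls, where of 12695 genes 659, 360 and 570 were lower and 381, 300 and 292 higher.

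Ube3a, the ubiquitin ligase gene expressed from the maternal copy in neurons and overlapped by Snhg14, was lower in the total knockout library. It stood at 715, 419, 812 and 706 CPM in inhibitory neurons and 461, 325, 511 and 458 CPM in granule neurons. Its ratio in inhibitory neurons of the total knockout library was -0.77 (interval -0.82 to -0.72), where that of Snhg14 was 0.19 (interval 0.16 to 0.22). In the astrocyte and neuron knockout libraries Ube3a was at 0.18 and -0.02 there, and Snhg14 at 0.12 and 0.18. A link between the levels of these genes was not tested, and no Ube3a ratio was taken with male nuclei only. Over the 5 classes the Ube3a ratios were -0.77 to -0.48 in the total, 0.13 to 0.27 in the astrocyte and -0.02 to 0.12 in the neuron knockout library.

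Rtl1, a paternally expressed gene of the Meg3 domain on the opposite strand (chr12:109589193-109600330), stood at 26.1, 16.6, 16.9 and 16.1 CPM in inhibitory neurons. The ratios were -0.65 (interval -0.90 to -0.40), -0.62 (interval -0.92 to -0.33) and -0.69 (interval -0.97 to -0.42), beside 0.30, 0.11 and 0.27 for Meg3. Subicular or cortical neurons gave -0.88, -0.71 and -0.74. In that class Dlk1, also paternally expressed in the domain, was at 0.44, 0.93 and -0.39, from 178, 141 and 67 UMIs against 88. The cluster with Dlk1 among its leading genes made up a different share of the class in each library. It held 167, 515, 403 and 237 of 1849, 4786, 2074 and 2164 nuclei in wild type, total, astrocyte and neuron knockout. The part of this mix in the Dlk1 ratios was not tested. Dlk1 lies outside the rule for named genes given below. Rtl1 did not lie lower in all of the other classes. In granule neurons Rtl1 was at -0.23 (interval -0.78 to 0.32), 0.48 (interval -0.04 to 1.01) and -0.83 (interval -1.56 to -0.13), the last from 25 against 59 UMIs. CA1 neurons gave -0.36, -0.02 and -0.28 and CA2/CA3 neurons -0.26, -0.29 and -0.43.

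**Figure D4:**
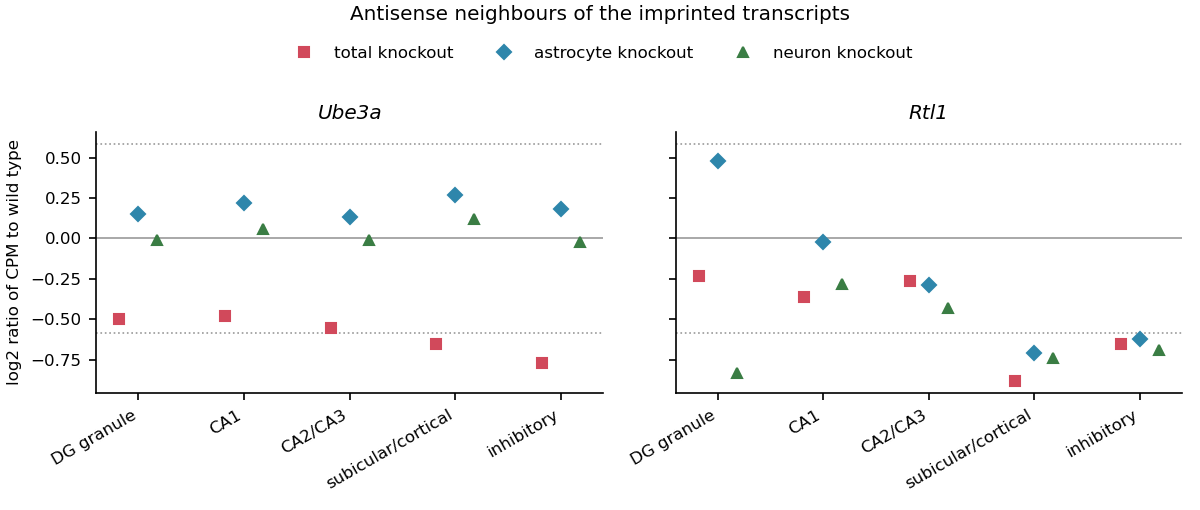
Log2 ratio of CPM to wild type for Ube3a and Rtl1 in the 5 classes, with 1 symbol per knockout library and dotted lines at 1.5-fold. Ube3a lies below 0 in each class of the total knockout library (-0.77 to -0.48), and Rtl1 lies past 1.5-fold below wild type in subicular or cortical and in inhibitory neurons of each library.

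Nnat, the gene of a small membrane protein of developing neurons, stood at 23.3, 34.5, 19.9 and 7.23 CPM in inhibitory neurons, lowest in the neuron knockout library (92 against 230 UMIs, log2 ratio -1.69, interval -2.05 to -1.33). In CA1 neurons it stood at 93.8, 131, 151 and 90.8 CPM, highest in the astrocyte knockout library (0.68, interval 0.58 to 0.79). Its mean was 642 CPM in astrocytes, 242 in oligodendrocyte precursors, 226 in CA2/CA3 neurons and 173 in subicular or cortical neurons. The 11 astrocyte markers summed to 191, 182, 150.1 and 148 CPM in inhibitory neurons. The Nnat ratio of inhibitory neurons was -0.23 in the astrocyte knockout library. In the neuron knockout library the Nnat ratio was 0.08 in granule, -0.05 in CA1, -0.20 in CA2/CA3 and -0.40 in subicular or cortical neurons. Whether RNA of other cells was part of these values was not tested.

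Further calls were made in CA1 and granule neurons. Mest was at 0.98 (interval 0.54 to 1.44) in CA1 neurons of the total knockout library (146 against 60 UMIs). Plagl1, a zinc-finger gene, was at 1.07 (interval 0.24 to 1.97) and 1.09 (interval 0.26 to 1.98) in CA1 neurons of the total and astrocyte knockout libraries. These ratios rest on low counts, 44 and 47 UMIs against 17 in wild type (1.47 CPM). Plagl1 was at 0.60 (interval -0.01 to 1.23, 53 against 41 UMIs) in granule neurons of the astrocyte knockout library. In inhibitory neurons of the neuron knockout library it was at -0.70 (interval -1.32 to -0.09, 42 against 53 UMIs).

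Lower values in inhibitory neurons were those of Peg13 at -0.93 (interval -1.33 to -0.53) in the neuron knockout library, and Zdbf2 at -0.62 (interval -0.90 to -0.33), from 169 against 267 UMIs, and Magel2 at -0.69 (interval -1.86 to 0.41) in the astrocyte knockout library. The interval of Magel2 includes 0. Of the most counted genes on the list, Kcnq1ot1 ratios were 0.09 to 0.27, Rasgrf1 ratios -0.25 to 0.18 and Ppp1r9a ratios -0.07 to 0.07.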

How the data were processed

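The values are raw UMI counts, deposited as a whole-number matrix for each library. Cell Ranger ARC 2.0.0 and mm10 are named in the submitters' processing notes; annotation and strand settings are unstated. Nuclei with at least 500 genes and at most 5% mitochondrial UMIs were kept, and a simulated-doublet score removed doublets (expected 0.8% per 1000 barcodes). Clustering used 2000 variable genes, without imprinted, sex-linked and mitochondrial genes, then 30 components, 15 neighbours and Leiden resolution 1 (scikit-learn 1.9.0, leidenalg 0.10.2). A cluster was named from at least 3 markers, each in 10% of nuclei and 2-fold above the rest, and 14 of 45 clusters (8882 nuclei) stayed unnamed; a name means resemblance on markers. UMIs were summed by library and class and scaled to CPM. Counting intervals are exact (Poisson for levels, conditional binomial for ratios, Clopper-Pearson for shares) and cover counting error only. Class means need 20 nuclei in a library. The ratio code was tested on simulated data. Named genes were the 8, the listed imprinted genes called in granule, CA1 or inhibitory neurons, the 4 of that list with most UMIs, and for each of the 8 the 3 most alike by Pearson r among genes with 1000 UMIs, of which 1 is not reported here. Members, lists, naming rule and motifs were chosen with earlier results of these data known.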

Additional observations from a re-analysis of the deposited data

How the results depend on the processing

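No paired analysis was possible because each genotype had 1 library and the result comes from no test. No call of the 8 genes changed sign under any alternative, but with male nuclei only no called pair stayed past 1.5-fold. For the other imprinted genes only the counts below were recomputed. Of the 120 ratios of the 8 genes, 52 (thinned to 1000 UMIs) to 120 (totals without Meg3 and mitochondrial genes) stayed within their counting intervals. Over the alternatives the Meg3 ratios were 0.08 to 0.71, the Mirg ratios -0.14 to 0.67, the Snrpn ratios -0.62 to -0.08 and the Ndn ratios -1.09 to 0.02. Median-ratio size factors shifted ratios by at most 0.06. Counts past the fold threshold, 0, 2 and 2 for the total, astrocyte and neuron knockout, became 3, 7 and 4 when thinned. They became 1 for the total and 4 for the neuron knockout with doublets kept, 1 for the astrocyte and 0 for the neuron knockout with male nuclei, and 1 for the total and 1 for the astrocyte knockout with a marker gate in each nucleus. With the largest cluster of each class, chosen after seeing the data, they were 1 for the total and 4 for the neuron knockout. The lower fold threshold gave 7, 11 and 10, and a fold of 2 gave 0 for the astrocyte and 0 for the neuron knockout. For the other imprinted genes the counts of 6, 8 and 6 became 25, 26 and 22 at the lower fold, 1, 1 and 1 at a fold of 2, 15, 24 and 17 with at least 20 UMIs, and 13 for the total knockout with doublets kept. Apart from the thresholds, the cause was not tested. Low counts limit Ndn and glial levels.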

Other observations

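Other imprinted genes varied over the classes, given here as means over libraries with no test. Rasgrf1, a paternally expressed gene of a Ras exchange factor, stood at 828 CPM in CA1 and 786 in granule neurons, and at 266 in inhibitory neurons. Kcnq1ot1, a paternally expressed antisense RNA, stood at 736 CPM in granule neurons, 860.0 in inhibitory neurons and 472 in oligodendrocytes. Its highest class mean was 1915 CPM in Cajal-Retzius cells, from 2 libraries. Usp29, the neighbour of Peg3, stood at 419 CPM in inhibitory, 175 in granule and 68.7 in CA1 neurons. Plagl1 stood at 29.0 CPM in CA2/CA3 neurons and 2.40 in CA1 neurons. Inpp5f reached 285 CPM in oligodendrocytes, against 83.4 in CA1 neurons. Usp29, Plagl1 and Inpp5f were singled out after their levels were seen.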
